A study of Mus musculus with 88 samples.

Results

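The genes described here are 10 markers of inhibitory neurons: the GABA synthesis and vesicle loading genes Gad1, Gad2 and Slc32a1, and the interneuron subtype markers Pvalb, Sst, Vip, Npy, Cck, Reln and Calb2. They were chosen by name, through their Ensembl identifiers, and all 10 are present among the 18946 genes of the medial prefrontal cortex (mPFC) table, the 48795 genes of the bed nucleus of the stria terminalis (BNST) table and the 19559 genes of the ventral hippocampus (vHPC) table. RNA of these regions was sequenced from male mice aged 8 weeks and killed 6 to 8 days after chronic social defeat stress (CSDS), in which a mouse is repeatedly attacked by an aggressive resident. Defeated mice were classed as susceptible or resilient by their social avoidance relative to undefeated controls of their strain, and the question was how expression differed between these groups. The inbred strains were C57BL/6Crl (B6) and DBA/2Crl (D2) by the labels, which the study's methods give as C57BL/6NCrl and DBA/2NCrl, and the labels name no transgene or drug. In the mPFC there were 6 B6 control, 6 B6 resilient, 6 B6 susceptible, 6 D2 control and 8 D2 susceptible mice. The BNST groups held 5 B6 control, 5 B6 resilient, 5 B6 susceptible, 5 D2 control, 3 D2 resilient and 5 D2 susceptible mice. In the vHPC there were 6 B6 control, 8 B6 resilient, 3 B6 susceptible, 6 D2 control and 5 D2 susceptible mice, so that the series held 88 libraries.

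GABA is the main inhibitory transmitter of the forebrain. It is made from glutamate by the enzymes GAD67, encoded by Gad1, and GAD65, encoded by Gad2, and is loaded into synaptic vesicles by the transporter VGAT, encoded by Slc32a1. In cortex and hippocampus it is released by local interneurons that fall into classes marked by parvalbumin (Pvalb), somatostatin (Sst) and vasoactive intestinal peptide (Vip). Neuropeptide Y (Npy), cholecystokinin (Cck), the extracellular protein reelin (Reln) and calretinin (Calb2) mark overlapping subsets, and Cck is also made by pyramidal cells. The BNST differs in that most of its own neurons, including its projection neurons, are GABAergic. In whole tissue, fewer cells of a type and less RNA per cell cannot be told apart, and this holds for every level below.

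In the mouse genome (GRCm38), Gad1 lies on chromosome 2 at 70553072 to 70602014, Gad2 on chromosome 2 at 22622205 to 22693874 and Slc32a1 on chromosome 2 at 158610767 to 158615748, all on the forward strand. Pvalb lies on chromosome 15 at 78191114 to 78206400 (reverse), Sst on chromosome 16 at 23889573 to 23890958 (reverse), and Vip on chromosome 10 at 5639218 to 5647617 (forward). Npy lies on chromosome 6 at 49822710 to 49829507 (forward), Cck on chromosome 9 at 121489824 to 121495694 (reverse), Reln on chromosome 5 at 21884454 to 22344702 (reverse) and Calb2 on chromosome 8 at 110137502 to 110168210 (reverse). Reads were counted over exons by the authors. All 10 are protein-coding, and their merged exons span from 566 bases (Npy) to 23738 bases (Reln). Of the exon bases of Slc32a1, 697 overlap the antisense gene Gm14205, and 246 exon bases of Reln overlap the antisense gene Gm10475. Whether the counting used strand is not given in the sources used here, so these 2 genes may hold antisense reads.

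The sequences just upstream of the RefSeq gene start (build GRCm38.p6) are shown for the 4 members called in 3 or more comparisons (Pvalb, Vip, Slc32a1 and Gad2), since these stretches hold their core promoters, and for Sst, which holds the full motif. Pvalb, Vip and Slc32a1 are given with 250 bases each, written 5′ to 3′ on the gene's strand. For Gad2 and Sst the window reaches into the gene body annotated by GENCODE (122 and 114 of 250 bases), so that only the 30 bases around the motif are shown. Capitals mark TGACG or its reverse complement CGTCA, the core of the cAMP response element, searched on both strands, and the full palindrome TGACGTCA holds both.
Pvalb (chr15:78206401-78206650, reverse strand): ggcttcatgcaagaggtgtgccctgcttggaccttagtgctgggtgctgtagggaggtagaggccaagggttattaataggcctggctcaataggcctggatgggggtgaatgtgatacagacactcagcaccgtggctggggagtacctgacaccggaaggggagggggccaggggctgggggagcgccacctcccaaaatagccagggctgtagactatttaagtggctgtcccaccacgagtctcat
Vip (chr10:5638968-5639217, forward strand): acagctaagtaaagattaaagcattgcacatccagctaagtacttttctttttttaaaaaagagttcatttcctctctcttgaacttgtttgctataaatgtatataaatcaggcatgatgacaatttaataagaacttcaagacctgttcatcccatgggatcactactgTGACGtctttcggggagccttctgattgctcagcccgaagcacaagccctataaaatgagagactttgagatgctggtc
Slc32a1 (chr2:158610508-158610757, forward strand): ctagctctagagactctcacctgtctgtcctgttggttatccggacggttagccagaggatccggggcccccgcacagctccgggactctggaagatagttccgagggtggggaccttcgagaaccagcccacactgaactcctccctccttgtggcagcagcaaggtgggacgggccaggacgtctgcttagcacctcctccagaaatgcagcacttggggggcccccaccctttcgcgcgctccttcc
Gad2 (chr2:22622283-22622312, forward strand): catttcccttcCGTCActctctcatctccc
Sst (chr16:23890874-23890903, reverse strand): gcctccttggcTGACGTCAgagagagagtt
The core was found in 4 of the 9 members with an entry, at 79 bases before the gene start for Vip, 33 for Gad2, 47 for Cck and 48 and 45 for Sst, where the matches overlap in the palindrome. Among all 32851 promoters of the same length, 17.8% held the core and 1.55% held the palindrome. Of the 3 genes called between strains in more than 1 region, Vip had a match, and Pvalb and Slc32a1 had none in this window.

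Levels were compared between genes per kilobase (kb) of merged exon, as log2 CPM (read counts scaled to the size of the library) per kb, averaged over all mice of a region. The 3 tables were normalised separately and come from different library kits, so that a level set across regions is a description only. In the mPFC, Npy stood highest with a mean of 7.37, followed by Cck at 6.47 and Sst at 5.82. Gad2 at 5.05 and Gad1 at 4.97 were neighbours in that order, and their order turned when the median over mice was taken. Slc32a1 stood lowest of the 10 at 3.11, behind Reln at 3.46 and Vip at 3.68. In the vHPC the leading members were Cck at 6.70 and Sst at 5.97, and the lowest were Slc32a1 at 3.07 and Vip at 2.803. In the BNST the genes of the GABA pathway stood close to the top of the order, with Sst at 6.73, Npy at 6.51, Gad2 at 6.48, Slc32a1 at 6.26 and Gad1 at 5.91, while Calb2 at 1.97 and Vip at −2.12 were lowest.

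The place of each gene among the protein-coding genes of its own table shows the same contrast without setting levels across tables. Slc32a1 stood at percentile 98.7 of 14013 genes in the BNST, but at percentile 61.6 of 14173 genes in the mPFC and 62.0 of 14434 in the vHPC. Gad2 stood at percentile 99.0 in the BNST, 93.0 in the mPFC and 88.0 in the vHPC, and Gad1 at 97.9, 92.4 and 93.4. Vip went the other way, at percentile 3.197 in the BNST, 73.9 in the mPFC and 56.5 in the vHPC. In the BNST it rested on 4 to 76 reads per library, so its values there carry large counting error. Cck was at percentile 98.8 in the mPFC and 99.0 in the vHPC, and at 71.3 in the BNST, and Calb2 was at 85.7, 91.9 and 43.9 in the same regions. Without the division by exon length, 24 of the 30 ranks within a region changed, with Reln, the longest gene, moving from the ninth to the first place in the mPFC.

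**Figure D1:**
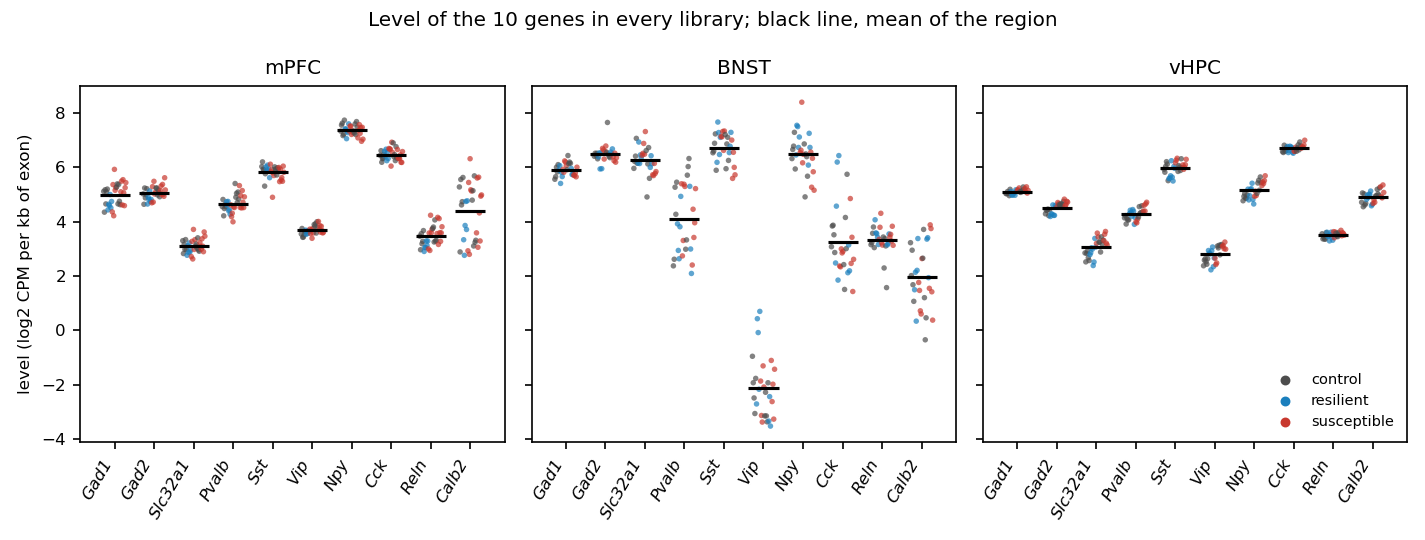
Level of the 10 genes in every library of the mPFC, BNST and vHPC, in log2 CPM per kb of exon, with 1 point per mouse coloured by phenotype (both strains together) and a black line at the mean of the region. Slc32a1 is the lowest member in the mPFC (mean 3.11) and near the top in the BNST (6.26), Vip is lowest in the BNST (mean −2.12), and Pvalb, Cck and Calb2 spread far more between mice in the BNST than in the vHPC.

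BNST libraries held 11825757 to 25793910 counts, with a median of 15273698. The depth behind the mPFC and vHPC values is unknown, since these were deposited as log2 CPM. Marker genes of 10 other cell types and tissues were read beside the members, and where the ranges of a list did not overlap between the groups of a comparison with called members, its summed CPM is given there or the list is named. The library preparation sets of the study held both controls and stressed mice in 4 of 5 sets for each mPFC comparison within a strain and in 2 of 2 sets for each BNST comparison. In the vHPC, 0 of 7 sets held both B6 control and B6 resilient mice and 0 of 6 held both B6 control and B6 susceptible mice, so that preparation set and stress group cannot be told apart there. For D2 mice 1 of 6 vHPC sets held controls and susceptible mice. Sequencing set 1 of the vHPC held 6 of 6 B6 control, 1 of 8 B6 resilient and 2 of 3 B6 susceptible mice. Of D2 mice it held 5 of 6 controls and 1 of 5 susceptible mice. Sequencing set thus nearly followed stress group where B6 resilient or D2 susceptible mice were compared with controls. A gene was called where its p-value, adjusted by the Benjamini-Hochberg method over all genes tested in a comparison, was under 0.05, by limma for the mPFC and vHPC and by edgeR's quasi-likelihood test for the BNST. Fold changes are on the log2 scale, each with its standard error (SE). The stress comparisons of a strain share their control mice, and resilient or susceptible mice also enter several of them.

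In the mPFC, 2 markers of interneuron classes were higher in D2 than in B6 controls, and 1 of them also in susceptible mice. No member was called between stressed and control mice of either strain. Pvalb, the calcium-binding protein of fast-spiking interneurons, had a lowest, median and highest level of 4.28, 4.61 and 4.88 log2 CPM in B6 controls and of 4.77, 5.03 and 5.47 in D2 controls. The upper end of the B6 range overlapped the lower end of the D2 range. The difference was 0.45 (SE 0.14, adjusted p = 0.0149). Vip, the peptide of interneurons that target other interneurons, had a lowest, median and highest level of 5.194, 5.303 and 5.52 in B6 controls against 5.35, 5.63 and 5.77 in D2 controls, and was higher in D2 by 0.28 (SE 0.07, adjusted p = 0.00437). The other 8 members were not called, and 27.79% of all genes were, so the share of members was below that of all genes. The summed CPM of 3 marker lists did not overlap between these controls: 1755 to 3376 in B6 and 1159 to 1693 in D2 mice for oligodendrocytes, 282 to 322 and 247 to 280.3 for microglia, and 400.2 to 439 and 369 to 389.9 for endothelial cells. Their part in the result was not tested. In susceptible mice 17.51% of all genes and 1 of 10 members differed by strain. That member was again Pvalb, at 4.06, 4.48 and 4.68 in B6 and 4.57, 4.88 and 5.39 in D2 mice, higher in D2 by 0.46 (SE 0.13, adjusted p = 0.0108). Without 1 mouse, D2 control replicate 1, the Pvalb difference in controls was 0.37 and was no longer called (adjusted p = 0.0509), and without B6 susceptible replicate 4 Cck was called as well in susceptible mice.

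Between stressed and control mice of the mPFC, limma called 0 of 10 members in each comparison. In B6 mice the share of all genes called was 0% between resilient and control, 2.22% between susceptible and control and 2.02% between susceptible and resilient mice, and the members with an unadjusted p under 0.05 numbered 0, 0 and 1. With the prefix of the mouse identifier as a covariate 0 genes were called in the latter 2 comparisons in place of 420 and 383, and with only the groups compared 4 and 26. Nearly all B6 susceptible mice carried the same prefix, which was rare in B6 controls and absent in B6 resilient mice. Prefix and susceptibility can thus hardly be told apart here. Calb2 had the lowest p between B6 resilient and control mice, with a difference of −0.92 (SE 0.61, unadjusted p = 0.143). Cck had the lowest p between B6 susceptible and control mice, 0.20 higher (SE 0.12, unadjusted p = 0.111). Reln had the lowest between susceptible and resilient mice, 0.39 higher in susceptible mice (SE 0.19, unadjusted p = 0.0481, adjusted p = 0.251). These 3 differences all lay within the spread between mice. In D2 mice 0% of all genes and 0 of 10 members were called between susceptible and control mice, none with an unadjusted p under 0.05, and Vip was lower by 0.10 (SE 0.07, unadjusted p = 0.146). The test of whether the susceptible against control difference itself differed between strains called 0% of all genes and 0 of 10 members, none at an unadjusted p under 0.05, with Cck closest at −0.33 (SE 0.16, unadjusted p = 0.051).

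**Figure D2:**
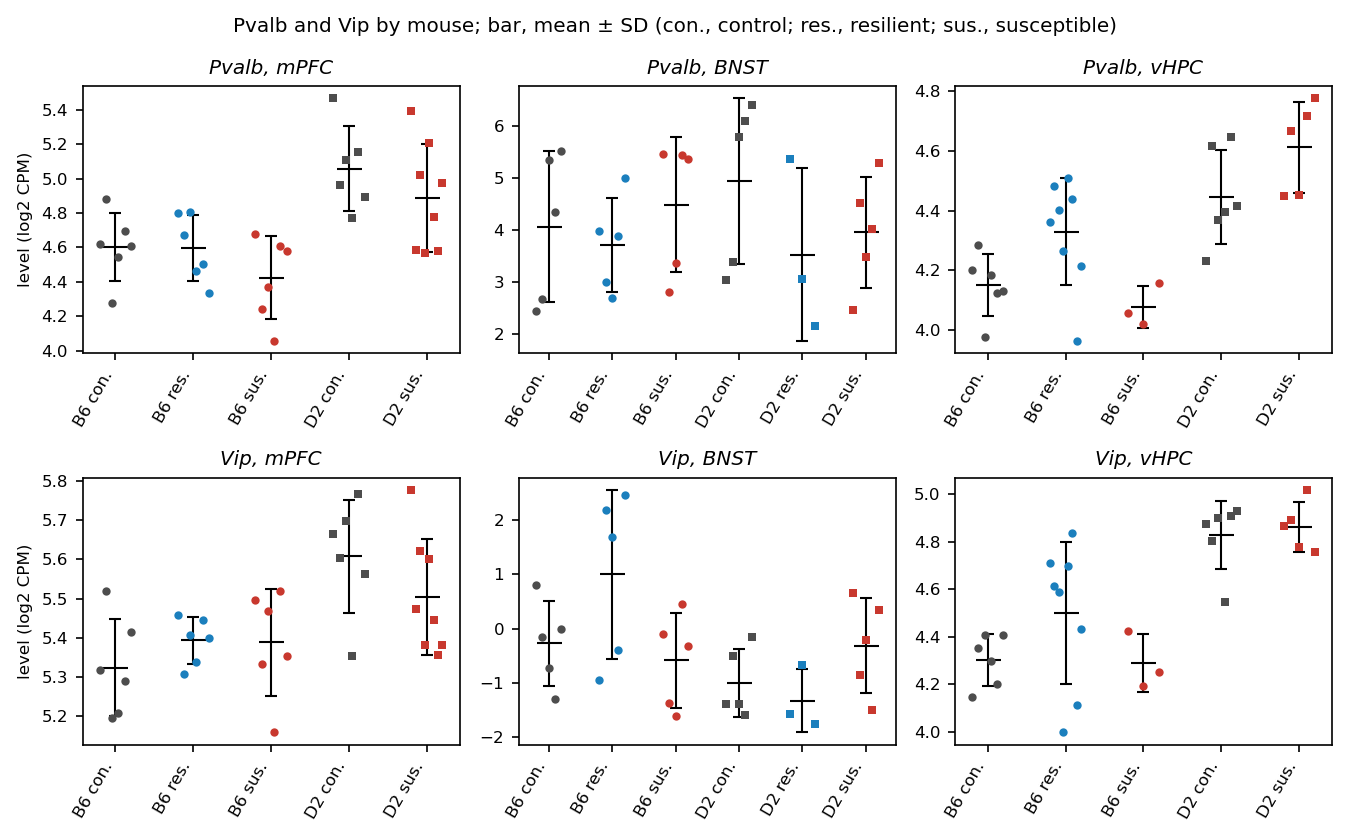
Level of Pvalb and Vip in log2 CPM in each mouse (circles B6, squares D2) by region and group, with the group mean and SD as bars. In the mPFC and vHPC the D2 group means lie above the B6 group means for both genes, with overlap of mice (Pvalb means of 5.06 against 4.61 in mPFC controls). For Vip in susceptible mice of the mPFC, where it was not called between strains, 5 of 8 D2 mice lie above the B6 mean. In the BNST both genes spread widely within groups.

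Several members of the mPFC varied together between mice with markers of the olfactory bulb, a tissue that adjoins the frontal pole. The summed CPM of 10 olfactory bulb markers, among them Tbx21, Cdhr1 and Omp, ran from 7.53 to 251 across the 32 libraries. Its lowest, median and highest values were 10.67, 76.9 and 121 in B6 controls, 8.32, 23.3 and 59.4 in B6 resilient, 7.53, 107 and 251 in B6 susceptible, 10.95, 53.9 and 160 in D2 control and 13.6, 72.0 and 165 in D2 susceptible mice. Each group held at least 1 mouse with a low sum, 13.6 or less. All 10 markers were in the table, and S100a5, Stoml3 and Tbx21 were near 0 where lowest (0.0117, 0.0345 and 0.0890 CPM) and reached 10.6, 5.63 and 7.47 CPM. After subtraction of group means, the correlation with the mean level of that list over the 32 libraries was 0.96 for Calb2, 0.93 for Gad1, 0.92 for Reln, 0.74 for Gad2 and 0.71 for Slc32a1 (Pearson's r), and leaving out the 2 libraries farthest from the median left 0.96, 0.93, 0.91, 0.73 and 0.69. Spearman's rho was 0.96, 0.92, 0.90, 0.77 and 0.70. For Pvalb, Sst, Vip, Npy and Cck the correlation was below 0, between −0.52 and −0.23. With the level of the list as a covariate, a choice made after seeing the data, the difference of Calb2 between B6 resilient and control mice went from −0.92 to 0.12 and that of Gad1 from −0.28 to 0.10. The strain difference of Pvalb in controls was 0.42 in that fit (adjusted p = 0.0162) and that of Vip 0.26 (adjusted p = 0.00306). Libraries of one region share depth and composition, so the correlations are descriptions.

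**Figure D3:**
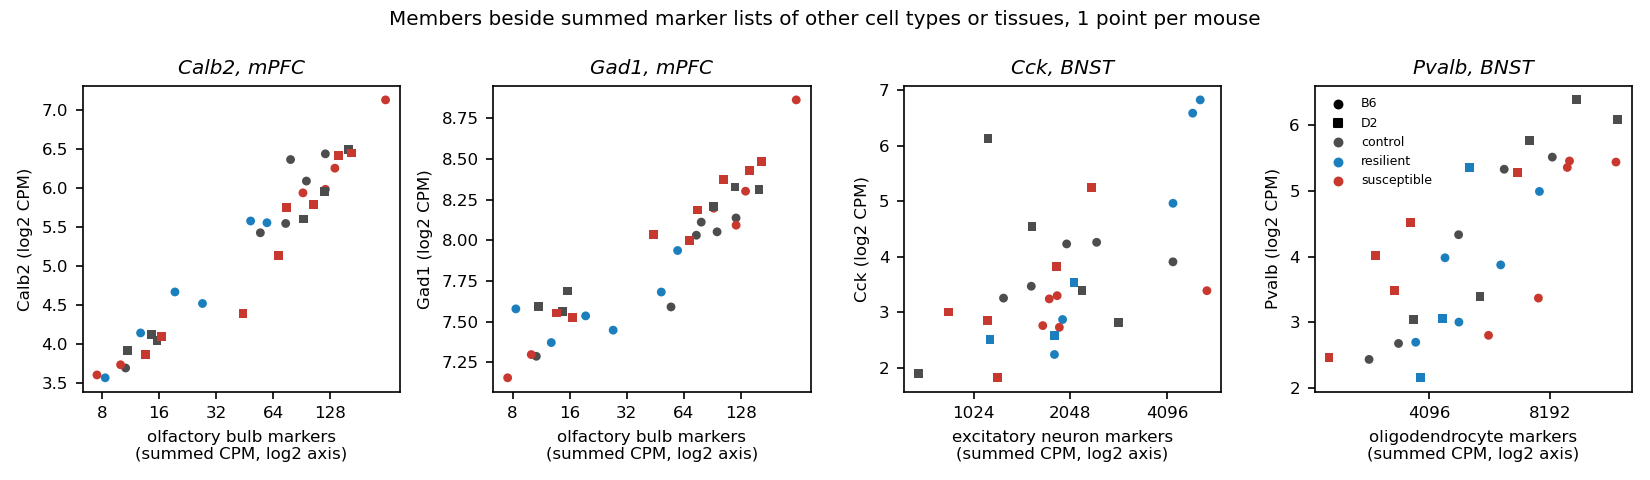
Level of Calb2 and Gad1 in the mPFC against the summed CPM of olfactory bulb markers, and of Cck and Pvalb in the BNST against excitatory neuron and oligodendrocyte markers, with 1 point per mouse, log2 CPM on the y axis and a log2 axis for the sums. The mouse with the highest olfactory bulb sum, 251, also has the highest Calb2, 7.12, and the 2 mice with the lowest sums, 7.53 and 8.32, have the lowest, 3.603 and 3.57.

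The genes whose levels were most like those of Gad1 in the mPFC, among 12882 protein-coding genes with a mean log2 CPM of at least 1 and after subtraction of group means, were Pacsin2 (r = 0.98), Gng4 (0.97) and Tshz1 (0.97). For Calb2 the closest gene was Tex15 (0.98), and for Reln it was Synpr (0.97). Among members, Gad1 and Reln (0.95), Reln and Calb2 (0.94) and Gad1 and Calb2 (0.93) were the most alike pairs of this region. For Pvalb the 3 closest genes were Kcnab2 (0.93), a potassium channel subunit, Ppme1 (0.92) and Jak1 (0.91), for Vip the closest included Adgrd1 (0.90) and Atmin (0.85), and for Sst they were Arhgdia (0.86), Cap1 (0.84) and Resp18 (0.83). Gad2 was closest to Rerg (0.92), Slc32a1 to Nt5e (0.91), Npy to Hcfc1r1 (0.86) and Cck to Atxn7l3 (0.91). Each value is a correlation over 32 libraries.

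In the BNST the vesicular GABA transporter gene was the member that differed between strains. Slc32a1 was at 7.93, 8.00, 8.37, 7.97 and 8.81 log2 CPM in the 5 B6 susceptible mice and at 7.22, 7.18, 7.63, 7.26 and 7.33 in the 5 D2 susceptible mice. Every D2 value lay below every B6 value. Slc32a1 was lower in D2 by 0.92 on the log2 scale (difference −0.92, SE 0.26, adjusted p = 0.0353), the only member called in this comparison, in which 5.18% of all genes were called. Npy, a peptide co-released by many GABAergic neurons, had a difference of −1.18 (SE 0.40, adjusted p = 0.0858), and Sst, another such peptide, one of −0.86 (SE 0.30, adjusted p = 0.0966). DESeq2 called all 3, among 1450 of 17515 genes against 907 by edgeR. The summed CPM of astrocyte markers (4272 to 5658 in B6, 2496 to 3219 in D2 susceptible mice) and of general neuron markers (4984 to 5950.5 and 3307 to 4977) did not overlap between these groups either, and their part in the result was not tested. Without TMM scaling, which moved the median of all genes by 0.49 in this comparison, the difference of Slc32a1 was −0.42 (adjusted p = 0.156), and with no filter on low counts it was −0.88 (adjusted p = 0.0564). Its call was also lost without B6 susceptible replicate 3 or 5, or D2 susceptible replicate 1, 2, 4 or 5, with differences between −0.92 and −0.75 and adjusted p-values from 0.0621 to 0.127.

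In BNST controls 0 of 10 members were called between strains by edgeR, DESeq2 or limma-voom, where edgeR called 2.51% of all genes (439, with 660 by DESeq2 and 435 by limma-voom). Slc32a1 was at 7.45, 7.71, 7.90, 8.56 and 7.64 in B6 controls and at 8.11, 6.398, 7.61, 8.22 and 7.08 in D2 controls. The 2 ranges overlapped. Members at an unadjusted p under 0.05 numbered 1, 1 and 2 by the 3 tools, and by edgeR it was Gad1, higher in D2 by 0.33 (SE 0.14, unadjusted p = 0.0233). The levels of Gad1 in controls were 8.50, 8.59, 8.94, 8.77 and 9.04 in B6 and 8.85, 9.37, 9.07, 9.13 and 9.09 in D2 mice.

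**Figure D4:**
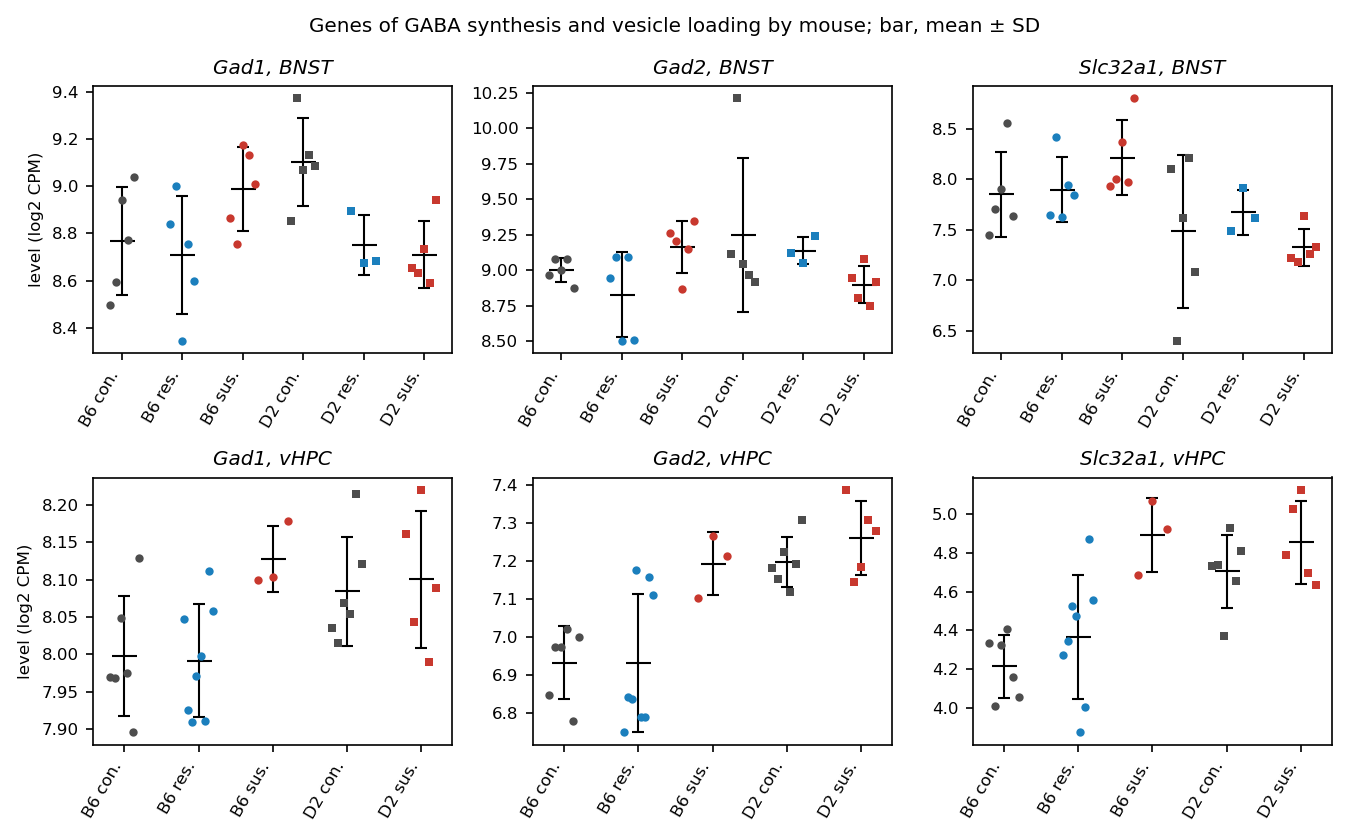
Level of Gad1, Gad2 and Slc32a1 in log2 CPM in each mouse of the BNST and vHPC (circles B6, squares D2) by group, with mean and SD as bars. In the BNST the 5 D2 susceptible mice lie below the 5 B6 susceptible mice for Slc32a1, and in the vHPC the 3 B6 susceptible mice lie above the 6 B6 controls for Gad2 and Slc32a1.

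No member was called in any stress comparison of the BNST by edgeR, DESeq2 or limma-voom. The shares of all genes called by edgeR were 0% between B6 resilient and control, 0% between B6 susceptible and control, 0.00571% between B6 susceptible and resilient, 0% between D2 resilient and control and 0% between D2 susceptible and control mice. Members at an unadjusted p under 0.05 numbered 2, 0, 2, 1 and 2 by edgeR, 2, 0, 3, 1 and 3 by DESeq2 and 1, 0, 2, 1 and 2 by limma-voom in the same order. Among the abundant members, Gad2 rested on at least 4661 reads in every library.

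Gad1 was the member with the lowest p in both D2 comparisons of the BNST. Its levels of 8.90, 8.67 and 8.68 in D2 resilient mice gave a difference from the controls above of −0.36 (SE 0.16, unadjusted p = 0.0336). The D2 resilient mice shared no prefix of the mouse identifier with the D2 controls, so prefix and group cannot be told apart in this comparison. A fit with the prefix as a covariate was not possible for it. In D2 susceptible mice it was at 8.65, 8.63, 8.73, 8.59 and 8.94, a difference of −0.40 (SE 0.14, unadjusted p = 0.00757, adjusted p = 0.629). In B6 susceptible mice it was at 8.87, 8.76, 9.18, 9.13 and 9.01, a difference from B6 controls of 0.21 (SE 0.14, unadjusted p = 0.130). The signs of the 2 differences between susceptible and control mice were opposite. The test of the strain difference in this effect gave −0.61 for Gad1 (SE 0.19, unadjusted p = 0.00402, adjusted p = 0.186), and over all members and genes it called 0 of 10 and 0%, with 3, 3 and 2 members at an unadjusted p under 0.05 by edgeR, DESeq2 and limma-voom. DESeq2 called 223 of all genes in this test, and limma-voom 0.

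Vip and Cck had the widest differences between B6 resilient mice and the other B6 groups of the BNST, and 3 of the 5 resilient mice were high for both. In B6 resilient mice Cck was at 2.87, 4.96, 6.58, 2.236 and 6.82 and Vip at −0.94, 2.197, 1.69, −0.40 and 2.47 log2 CPM. In B6 controls Cck ran from 3.25 to 4.26 and Vip from −1.29 to 0.81, and in B6 susceptible mice Cck ran from 2.73 to 3.39 and Vip from −1.61 to 0.46. In the order given, the same 3 mice were the high ones for both genes. Cck differed by 1.78 between B6 resilient and control mice (SE 0.73, unadjusted p = 0.0212, adjusted p = 0.9999) and by −2.55 between susceptible and resilient mice (SE 0.75, unadjusted p = 0.00219, adjusted p = 0.336). Vip had the lowest p of the members in B6 resilient against control mice, with a difference of 1.67 (SE 0.56, unadjusted p = 0.00630, adjusted p = 0.9999), and in susceptible against resilient mice, with −1.96 (SE 0.57, unadjusted p = 0.00207, adjusted p = 0.336). The summed CPM of 10 excitatory neuron markers, such as Slc17a7 and Neurod6, was 1939, 4280, 4929, 1829 and 5202 in these 5 resilient mice in the same order. It was high in the same 3 mice, while 1 B6 susceptible mouse reached 5457 with Cck at 3.39. Over the 28 BNST libraries, after subtraction of group means, Cck had a correlation of 0.82 with the level of that list (rho 0.69, and 0.77 without the 2 farthest libraries). With that level as a covariate, chosen after seeing the data, the difference of Vip between B6 resilient and control mice was 0.62 (unadjusted p = 0.273) and that of Cck −0.44 (unadjusted p = 0.386). The lowest sums of the groups were 689 to 1829, and the largest medians in the list were those of Camk2a (1267 CPM) and Nrgn (468 CPM). Slc17a7 and Neurod6 were near 0 where lowest (0.116 and 0.0319 CPM), with medians of 8.19 and 0.566 CPM, and reached 514 and 30.1 CPM. The sum thus says little about these 2 genes.

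Pvalb, Reln and Npy of the BNST varied with markers of other cells. Pvalb ran from 2.16 to 6.387 log2 CPM over the 28 libraries. The group with the narrowest range was B6 resilient (2.70 to 4.99), and that with the widest was D2 control (3.05 to 6.387). Group means were subtracted before each correlation given here. The correlation of Pvalb with the level of 10 oligodendrocyte markers was 0.91 (rho 0.93, and 0.91 without the 2 farthest libraries), and 0.88 with 10 astrocyte markers. The summed CPM of the oligodendrocyte list ran from 2897 to 8295 in B6 controls, 3786 to 7704 in B6 resilient, 5751 to 11955 in B6 susceptible, 3731 to 12065 in D2 control, 3895 to 5164 in D2 resilient and 2301 to 6798 in D2 susceptible mice. The ranges of all groups overlapped except those of B6 susceptible and D2 resilient mice. Reln had a correlation of 0.91 and Npy one of 0.81 with 10 markers of striatal projection neurons (rho 0.91 and 0.77, and 0.89 and 0.83 without the 2 farthest libraries), whose sum ran from 896 to 8354. The part of these cells in the differences above was not tested.

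The genes most like Pvalb in the BNST, among those with a mean log2 CPM of at least 1 and after subtraction of group means, were Pmp22 (r = 0.93), a myelin gene, Usp54 (0.93) and Hapln4 (0.92), a gene of the nets around axons and cell bodies. Those most like Sst were Ncoa6 (0.93), Ankrd11 (0.92) and Cadm3 (0.92), and the gene most like Npy was Sirpa (0.96). Gad1 had no partner above 0.76, with Ankrd34b (0.76), Rap1a (0.75) and Wnk1 (0.75) as the closest, and Vip none above 0.80, with Nrn1 (0.80), Olfm1 (0.78) and Kcnj6 (0.77). Gad2 was closest to Nova1 (0.90), Slc32a1 to Map2k7 (0.91), Reln to the striatal gene Rgs9 (0.92), Cck to Mical2 (0.87) and Calb2 to AW551984 (0.88). Of the member pairs of this region, Sst and Npy (0.79) and Slc32a1 and Sst (0.64) were the most alike.

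In the vHPC more members differed than in the other regions, and so did more of all genes. Between strains, 6 of 10 members were higher in D2 than in B6 controls and 0 were lower. The share of members called was close to that of all genes, 59.32%. Vip had a lowest, median and highest level of 4.147, 4.32 and 4.41 log2 CPM in B6 controls and of 4.55, 4.89 and 4.93 in D2 controls, and was higher in D2 by 0.53 (SE 0.11, adjusted p = 0.000193). Npy was at 3.95, 4.08 and 4.22 in B6 against 4.23, 4.61 and 4.83 in D2 controls, a difference of 0.46 (SE 0.11, adjusted p = 0.000795). Gad2 was at 6.78, 6.98 and 7.02 in B6 against 7.12, 7.187 and 7.31 in D2 controls, a difference of 0.26 (SE 0.07, adjusted p = 0.00260). For these 3 genes every D2 control lay above every B6 control. Slc32a1 was higher in D2 by 0.49 (SE 0.13, adjusted p = 0.00247), Pvalb by 0.30 (SE 0.08, adjusted p = 0.00406) and Calb2 by 0.28 (SE 0.10, adjusted p = 0.0201), with overlap of the groups. Gad1, Sst, Cck and Reln had differences of 0.08 to 0.10 and were not called. Calb2 lost its call without B6 control replicate 3 or D2 control replicate 6.

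Among susceptible mice of the vHPC, 4 of 10 members were higher in D2 and 0 lower, where 32.67% of all genes were called, a share near that of the members. Pvalb was at 4.06, 4.02 and 4.16 in the 3 B6 mice and at 4.45, 4.67, 4.45, 4.72 and 4.78 in the 5 D2 mice, a difference of 0.53 (SE 0.11, adjusted p = 0.000355). Vip was at 4.43, 4.192 and 4.25 against 4.86, 4.89, 4.78, 5.02 and 4.76, a difference of 0.57 (SE 0.14, adjusted p = 0.00216). Npy was at 4.119, 4.31 and 4.14 against 4.51, 4.65, 4.59, 4.69 and 4.87, a difference of 0.47 (SE 0.14, adjusted p = 0.0103). The groups did not overlap for these genes, nor for Calb2, which was higher in D2 by 0.37 (SE 0.13, adjusted p = 0.0298) and lost its call without B6 susceptible replicate 1 or 3 or D2 susceptible replicate 1 or 4. Slc32a1 and Gad2, higher in D2 among controls, had differences of −0.04 and 0.07 here.

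Markers of other cells also differed between the strains, so that marker level and strain cannot be told apart here. The summed CPM of 10 oligodendrocyte markers had a median of 3854 in B6 control, 3012 in B6 resilient, 2301 in B6 susceptible, 1601 in D2 control and 1434 in D2 susceptible mice of the vHPC, while that of 10 general neuron markers was 5943, 6232, 6564, 6613 and 6950 in the same order. B6 control and D2 control mice did not overlap in either sum. The astrocyte, endothelial and microglia sums did not overlap between these groups either, with 6331 to 6942 in B6 and 5497 to 6002 in D2 controls, 465 to 524 and 329.7 to 351, and 369.8 to 387 and 259 to 285. In susceptible mice the same 5 lists were separate between strains, as were those of the olfactory bulb (5 of 10 genes in the table) and of thalamic neurons. With the oligodendrocyte level as a covariate, chosen after seeing the data, 2560 genes in place of 11603 were called between strains in controls and 2579 in place of 6389 in susceptible mice, among them 1 member in controls (Npy, 0.96) and 2 in susceptible mice (Pvalb, 0.57, and Npy, 0.78). In controls Gad2 (0.27 in place of 0.26) and Pvalb (0.35 in place of 0.30) lost the call with wider errors (SE 0.21 and 0.24 in place of 0.07 and 0.08), while the difference of Vip was 0.075 in place of 0.53. With the library set as a covariate 0 members were called in either comparison, and 1643 and 739 of all genes. In controls Slc32a1 then differed by 0.92, Vip by 0.79 and Pvalb by −0.041, and in susceptible mice Pvalb differed by 0.74 and Npy by 0.69. With the sequencing set as a covariate the same 6 members were called in controls, and Cck was added to the 4 called in susceptible mice.

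In B6 mice of the vHPC, Gad2 and Slc32a1 were higher in susceptible mice than in controls, 2 of 10 members where 40.64% of all genes were called, a share below that of all genes. Slc32a1 was at 4.01, 4.24 and 4.405 (lowest, median, highest) in B6 controls and at 4.69, 5.07 and 4.92 in the 3 B6 susceptible mice, a difference of 0.68 (SE 0.16, adjusted p = 0.00194). Gad2, the enzyme of the terminal pool of GABA, was at 7.10, 7.27 and 7.213 in the susceptible mice against 6.78, 6.98 and 7.02 in controls, a difference of 0.26 (SE 0.09, adjusted p = 0.0196). The 3 susceptible mice lay above the 6 controls for both genes. Gad1, the other synthesis enzyme, had a difference of 0.13 and was not called. The call of Gad2 was lost without B6 susceptible replicate 2 or 3. With the library set as a covariate the difference of Slc32a1 was 1.122 (SE 0.46, adjusted p = 0.340) and that of Gad2 0.22 (adjusted p = 0.733). No library set held both groups, so that fit relates them only through other groups that share their sets. With the sequencing set as a covariate both genes were called, at 0.63 and 0.29, as was Sst. With the oligodendrocyte level, whose sums in B6 controls and B6 susceptible mice are given above, as a covariate, 0 members and 1904 of all genes were called, and Slc32a1 differed by 0.60 (adjusted p = 0.154) and Gad2 by 0.27. With the library set 202 of all genes were called in place of 7949. The oligodendrocyte, astrocyte, endothelial and microglia sums were lower and the general and excitatory neuron sums higher in B6 susceptible mice than in B6 controls, without overlap.

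Against B6 resilient mice, 3 of 10 members were higher in B6 susceptible mice, where 27.63% of all genes were called, a share near that of the members. Slc32a1 was at 3.87, 4.41 and 4.87 (lowest, median, highest) in resilient mice, and differed by 0.53 (SE 0.15, adjusted p = 0.0165). Gad2 was at 6.75, 6.84 and 7.18 there, and differed by 0.26 (SE 0.08, adjusted p = 0.0245). Sst, the peptide of dendrite-targeting interneurons, was at 5.03, 5.20 and 5.78 in resilient mice and at 5.6997, 5.797 and 5.87 in susceptible mice, a difference of 0.47 (SE 0.14, adjusted p = 0.0168). The susceptible mice overlapped the upper end of the resilient mice for all 3 genes. The calls rested on few mice: none of the 3 held without B6 susceptible replicate 2 or 3, and 5 members were called without B6 resilient replicate 7. A fit on these groups alone, the library set covariate and the oligodendrocyte covariate each left 0 members called, with 1017, 0 and 1594 of all genes called in place of 5404. The differences in these 3 fits were 0.53, 0.68 and 0.48 for Slc32a1, 0.26, 0.25 and 0.26 for Gad2 and 0.47, 0.46 and 0.55 for Sst. The sequencing set covariate left 1 member, Slc32a1. The oligodendrocyte and endothelial sums were lower and the general neuron sum higher in susceptible than in resilient mice, without overlap. For Gad2, 3 of the 8 resilient mice (7.11 to 7.18) reached the susceptible range. Within sequencing set 1, which held 1 resilient and 2 susceptible B6 mice, Gad2 differed by −0.018, Sst by 0.0079 and Slc32a1 by 0.33, none called. The lone resilient mouse is assumed to vary like the other groups in that fit.

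In the remaining vHPC comparisons limma called 0 members. Sequencing set nearly followed stress group in those between stressed and control mice, as given above. Between B6 resilient and control mice 10.84% of all genes and 0 of 10 members were called, with 1 member, Pvalb, at an unadjusted p under 0.05, where it was 0.18 higher in resilient mice (SE 0.08, unadjusted p = 0.0316, adjusted p = 0.157). Without B6 resilient replicate 7 that difference was 0.23 and called (adjusted p = 0.0320), and without B6 resilient replicate 4 Vip was called. With the library set as a covariate the difference of Pvalb was −0.12, in a fit where no set held both groups. In D2 mice 4.28% of all genes and 0 of 10 members were called between susceptible and control mice, none at an unadjusted p under 0.05. All 10 members had a difference above 0 there, from 0.02 to 0.17, with Pvalb at the upper end (SE 0.09, unadjusted p = 0.0710). The test of whether the susceptible against control difference differed between strains called 0.782% of all genes and 0 of 10 members, with 1 at an unadjusted p under 0.05: Slc32a1, whose difference was 0.68 in B6 and 0.15 in D2 mice (interaction −0.53, SE 0.21, unadjusted p = 0.0196, adjusted p = 0.206).

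**Figure D5:**
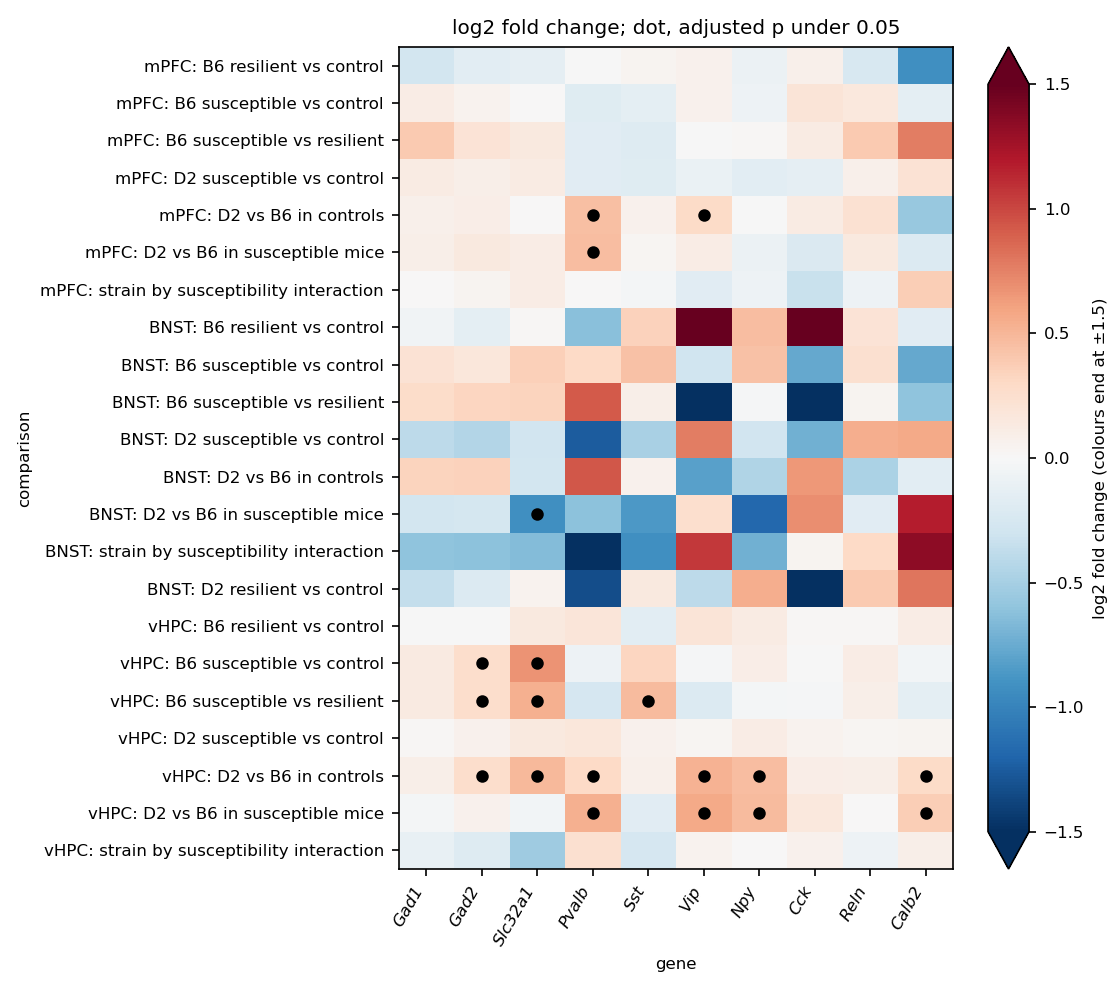
Log2 fold change of the 10 genes (columns) in the 22 comparisons (rows), in red where higher in the group named first and in blue where lower, with colours ending at 1.5 in either direction and a dot where the adjusted p was under 0.05. The dots fall on Pvalb and Vip in the mPFC, on Slc32a1 in the BNST and on up to 6 members in the vHPC, and 15 of the 22 comparisons have none.

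Over the 28 vHPC libraries, after subtraction of group means, the genes most like Gad1 included Rab3b (r = 0.82), a vesicle gene, and C2cd2 (0.80). For Pvalb the 3 closest were the ribosomal gene Rplp1 (0.86), Pfdn5 (0.84) and the ribosomal gene Rps7 (0.84). Those closest to Sst were Trp53bp2 (0.84), Dctn6 (0.83) and Fam222b (0.83), and to Vip they were Fbxl4 (0.92), Cyp2j6 (0.90) and Zfp426 (0.89). Slc32a1 was closest to Ipo9 (0.95), Gad2 to Ablim3 (0.90), Reln to Nell1 (0.89), Calb2 to Glp1r (0.85), Npy to Ssb (0.84) and Cck to Hist1h4d (0.84). Npy and Cck were the most alike pair of members (0.83). Of the marker lists, again after subtraction of group means, Vip had a correlation of −0.74 with the endothelial list and −0.75 with the thalamic neuron list (rho −0.82 and −0.70, and −0.73 and −0.75 without the 2 farthest libraries).

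Other genes of the pathway were read from 4 lists. With the library set as a covariate in the vHPC, 1643 of all genes in place of 11603 were called between strains in controls. Between B6 susceptible and control mice 202 in place of 7949 were called. Between B6 susceptible and resilient mice it was 0 in place of 5404, so that every call given here for that comparison was lost. Preparation set and stress group cannot be told apart between B6 controls and stressed B6 mice of the vHPC, and the cause of the lost calls was not tested. The first list held 10 genes of GABA transport, breakdown and the inhibitory synapse. Between strains in vHPC controls, where 59.32% of all genes were called, 5 of the 10 were higher in D2 and 2 lower, with the glial GABA transporter Slc6a11 at 0.85 and the synaptic adhesion gene Nlgn2 at 0.60, and with the chloride importer Slc12a2 at −0.78 and the GABA transporter Slc6a13 at −0.51. In B6 susceptible against control mice of the vHPC (40.64% of all genes), 5 were higher and 1 lower, led by Slc6a11 at 0.91 and Nlgn2 at 0.53, with Slc12a2 at −0.55. The median difference over the list there was 0.12, beside −0.0099 over all genes. Against B6 resilient mice (27.63% of all genes) 5 were higher and 1 lower, by the same 3 genes at 0.74, 0.42 and −0.34. Among susceptible mice of the vHPC (32.67% of all genes) 0 were higher in D2 and 2 lower, Slc12a2 at −0.46 and Aldh5a1, which breaks GABA down, at −0.14. In mPFC controls (27.79% of all genes) 3 were higher in D2 and 1 lower. No gene of this list was called in the BNST.

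Of 14 transcription factors of interneuron development and identity, 8 were higher in D2 than in B6 controls of the vHPC and 0 lower, a share close to the 59.32% of all genes called there, with Nr2f2 at 0.60 and Sp9 at 0.57. In B6 susceptible mice 5 were higher than in controls (40.64% of all genes called), led by Nr2f2 at 0.79, and 5 were higher than in resilient mice (27.63%), led by Dlx2 at 1.01 and Nr2f2 at 0.69. In mPFC controls (27.79%) 2 were higher in D2, Npas1 and Satb1. Of 20 further interneuron subtype genes, 10 were higher and 2 lower in D2 controls of the vHPC (59.32% of all genes called), with the tachykinin gene Tac2 at 1.05 and the nitric oxide synthase gene Nos1 at 0.97, and with the somatostatin-related peptide cortistatin (Cort) at −1.60 and Id2 at −0.27. In susceptible mice of the vHPC (32.67%) 4 were higher in D2 and 2 lower, with Tac2 at 0.69, Nos1 at 0.56, Cort at −1.36 and Id2 at −0.36. In B6 susceptible mice 7 were higher than in controls and 1 lower (40.64%), with Nos1 at 0.65, Kit at 0.58 and Cort at −0.61, and 6 were higher than in resilient mice (27.63%), with Kit at 0.51 and Kcnc1, a channel of fast-spiking cells, at 0.44. Between B6 resilient and control mice of the vHPC (10.84%) Nos1 was 0.26 higher and Cort was lower (−0.60). In the mPFC 6 were higher and 2 lower in D2 controls (27.79%), 4 higher and 1 lower in D2 susceptible mice (17.51%), and Kcnc1 was the 1 gene called in B6 susceptible against resilient mice (2.02%), at 0.46, a call lost with the mouse identifier prefix as a covariate, where 0 genes were called.

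The last list held 14 receptors of the members' products, of which 12 were measured in the mPFC and vHPC. Vipr2, a receptor of Vip, was higher in D2 controls in the vHPC by 1.82 and in the BNST by 2.46 (SE 0.66, adjusted p = 0.0404), and higher in D2 susceptible mice of the vHPC by 1.05. In BNST controls the summed CPM of thalamic neuron markers ran from 320 to 683 in B6 and from 338 to 2940 in D2 mice. Its part in the BNST value of Vipr2 was not tested. The other Vip receptor, Vipr1, was lower in D2 controls of the BNST (−1.26, adjusted p = 0.0294). In the vHPC Vipr1 was higher in D2, by 0.37 in controls and by 0.27 in susceptible mice. In vHPC controls 6 receptors were higher in D2 and 4 lower (59.32% of all genes called), with the cholecystokinin receptor Cckbr at 0.67 and the somatostatin receptor Sstr4 at −0.71, and Npy2r at −0.30. In B6 susceptible mice of the vHPC 7 were higher than in controls and 3 lower (40.64%), with Vipr2 at 1.16, Cckbr at 0.67, Sstr4 at −0.36 and Npy5r at −0.25, and 4 were higher than in resilient mice (27.63%), with Vipr2 at 0.78 and Cckbr at 0.50. In BNST susceptible mice Sstr5 was higher in D2 by 3.07 (adjusted p = 0.00363) and Sstr2 by 1.25 (adjusted p = 0.0474). In the mPFC Sstr4 and Sstr3 were lower in D2 controls and in D2 susceptible mice, where they were at −0.32 and −0.24. Sstr3 went the other way in vHPC controls, where it was higher in D2 by 0.34. The lists were read with the results of these data known.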

How the data were processed

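RNA of the mPFC, BNST and vHPC was sequenced from 88 mouse samples, with 1 library per mouse and region, and mPFC and vHPC libraries came from the same animal for 7 mice. The authors removed ribosomal RNA (Ribo-Zero Gold for mPFC and vHPC, InDA-C in the Ovation kit for BNST), prepared libraries with ScriptSeq v2, Ovation Universal and Nextera kits in the same order of regions as above (mPFC, BNST, vHPC), aligned reads with STAR to GRCm38, removed PCR duplicates and counted reads over exons with HTSeq. The strand setting is not given in the sources used here. For the BNST the deposited values are raw counts per gene. For the mPFC and vHPC the authors deposited log2 CPM values made with voom and adjusted for batch with ComBat, which can shrink or shift group differences where batch and group coincide. No column of per-sample values was left out (0).

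Groups follow strain and phenotype in the labels. The mPFC and vHPC values were tested with limma 3.58.1 (robust empirical Bayes, a mean per group), and the BNST counts with edgeR 4.0.16 (TMM, robust quasi-likelihood) over 17515 genes that reached 1 CPM in 6 or more libraries, in R 4.3.3, with Benjamini-Hochberg adjustment over all genes. BNST levels are log2 CPM with a prior count of 0.5, and an edgeR SE is the fold change over the root of its F value. Each model was run on data simulated from the model itself, without batch structure, so that run says nothing about batches. p-values measure the spread between mice within groups, estimated over all groups of a region and not only those compared. For the mPFC and vHPC this is the spread left after the authors' adjustment for batch. The alternatives were DESeq2 1.42.0, limma-voom, other filters and scalings, library set and sequencing set, and each mouse left out. Exon lengths and positions come from GENCODE vM21. Single statistics are given for members with an adjusted p under 0.05 and otherwise for the member with the lowest p, for the 2 highest and 2 lowest called genes of a list at most, and for the closest gene (3 for Gad1, Pvalb, Sst and Vip). Some genes beyond that rule, such as Cck in the BNST, were named after their values were seen, and a few that the rule names are not reported here. Members and lists were chosen with earlier results of these data known.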

Additional observations from a re-analysis of the deposited data

Results flagged for a closer look

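Among 140 sets of 4 to 10 mice (1 gene in 1 group), 6 held a mouse far from the others by Dixon's test, and chance gives about 1 in 20. In the BNST, Gad2 was at 10.212 log2 CPM in D2 control replicate 2, with the next mouse at 9.12, and Slc32a1 was lowest of its group in the same mouse, at 6.398. Npy was at 7.58 in B6 susceptible replicate 3 of the BNST, with the next mouse at 5.81, and the summed CPM of striatal projection neuron markers was 8354 in that library, the highest of its group. Calb2 was at 3.69 in B6 control replicate 2 of the mPFC, with the next mouse at 5.42, and the olfactory bulb marker sum of 10.67 CPM was the lowest of its group there. Sst was lowest at 4.43 in B6 susceptible replicate 4 of the mPFC, the mouse with the highest olfactory bulb sum (251 CPM). Sst was also low in D2 control replicate 4 of the mPFC, at 5.25 against 5.46 in the next mouse. Vip was at 4.55 in D2 control replicate 4 of the vHPC, with the next mouse at 4.804. Whether the marker levels have a part in these values was not tested.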

How the results depend on the processing

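No paired analysis was possible because the compared groups hold different mice and replicate numbers only name them. Of 22 comparisons, the 15 in which 0 members were called stayed at 0 under every alternative other than leaving out 1 mouse. Of 177 recomputed counts of called members, 162 lay within 1.5 times the reported one. That total includes the counts that stayed at 0, so it says little about the comparisons with called members. All 15 counts that moved came from comparisons with called members. Between strains in susceptible mice of the BNST, DESeq2 and the excitatory marker covariate each gave 3 members, and no filter on low counts or library sizes without TMM gave 0. Between B6 susceptible and resilient mice of the vHPC the count was 0 with only the groups compared, with the library set covariate, within sequencing set 1 and with the oligodendrocyte covariate, and 1 with the sequencing set covariate. With the library set covariate 0 members were called between B6 susceptible and control mice or between strains in the vHPC. With the oligodendrocyte covariate the counts were 0 for B6 susceptible against control, 1 between strains in controls and 2 in susceptible mice. Signs turned for Reln in mPFC B6 susceptible against resilient mice with the mouse ID prefix as covariate (−0.023), Calb2 in mPFC B6 resilient against control mice with the olfactory bulb covariate (0.12), Gad1 in BNST B6 susceptible against control mice without TMM (−0.050, where that scaling moved the median of all genes by −0.26), Pvalb in the vHPC with the library set covariate (−0.12 in B6 resilient against control mice, −0.041 between strains in controls) and Gad2 in vHPC B6 susceptible against resilient mice within sequencing set 1 (−0.018). Without TMM the turn follows from that shift, and for the others the cause was not tested.

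With 1 mouse left out, 261 of 275 counts lay within 1.5 times. That total also includes the comparisons with 0 members called, of which only B6 resilient against control mice of the vHPC moved. The counts ran from 1 to 2 between strains in the mPFC in controls and in susceptible mice, and from 0 to 1 between strains in susceptible mice of the BNST. In the vHPC they ran from 0 to 1 for B6 resilient against control, 1 to 3 for B6 susceptible against control, 0 to 5 for B6 susceptible against resilient, 5 to 7 between strains in controls and 3 to 4 in susceptible mice. Without D2 susceptible replicate 1 the member called in the BNST was Sst in place of Slc32a1. Depth limits Vip in the BNST, with 4 to 76 reads per library.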

Other observations

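In the mPFC the summed CPM of 10 oligodendrocyte markers had medians of 2871 in B6 control, 2623 in B6 resilient, 1489 in B6 susceptible, 1306 in D2 control and 1222 in D2 susceptible mice. Over the 32 mPFC libraries, after subtraction of group means, Pvalb, Vip and Cck had correlations of 0.71, 0.79 and 0.81 with the mean level of 10 general neuron markers. With 10 thalamic neuron markers the correlation was −0.74 for Pvalb and −0.76 for Vip, and 0.80 for Gad2 and 0.79 for Calb2. These are values of the same libraries as the members, and what they share was not tested.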
